A study of Mus musculus with 20 samples.

Results

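The genes described here are 10 genes of glycolysis: the glucose transporter gene *Slc2a3* and the enzyme genes *Hk2*, *Hk3*, *Pfkl*, *Aldoa*, *Gapdh*, *Pgk1*, *Eno1*, *Pkm* and *Ldha*. They were chosen by name, with earlier results of these data known, and taken by symbol from the read counts per gene of 20 libraries of mouse bone marrow neutrophils. All 10 are among the 24421 genes of these counts, and all 10 passed the filter on low counts that left 14030 genes to be tested.

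Glycolysis splits glucose into pyruvate in the cytosol and yields ATP without oxygen. Neutrophils hold few mitochondria and draw most of their ATP from it, and they use it to move, to kill microbes and to work in inflamed tissue that is short of oxygen. SLC2A3 brings glucose into the cell, hexokinases trap it as glucose 6-phosphate, phosphofructokinase makes the committed step, and aldolase, glyceraldehyde-3-phosphate dehydrogenase, phosphoglycerate kinase, enolase and pyruvate kinase follow. Lactate dehydrogenase then turns pyruvate into lactate and gives back the NAD+ that the GAPDH step uses.

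The study asked how loss of the clock gene *Bmal1* in myeloid cells bears on lupus-like disease brought on by imiquimod (IMQ), an agonist of Toll-like receptor 7. RNA was sequenced from 4 groups of 5 libraries each, WT and *Bmal1* Mye-/- with and without IMQ, all from female mice killed early in the light phase. WT mice were C57BL/6J. *Bmal1* Mye-/- mice carried floxed *Bmal1* alleles and LysM-Cre, that is, a Cre recombinase inserted at *Lyz2*, which acts in neutrophils, monocytes and macrophages alike. IMQ was given to mice stated to be 8 to 10 weeks old, as a 5% cream on both ears 3 times per week for 6 weeks. The treated mice were killed after that course, so they were older when sampled. An age of the untreated mice is not given in the sources used here. WT mice were bought in and *Bmal1* Mye-/- mice were bred at the study's own facility, so the WT groups were not littermates that carry Cre. Neutrophils were enriched by magnetic negative selection, and the study checked their purity by flow cytometry for CD11b and Ly6G and found them to be nearly all of the cells.

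Between 30782166 and 92613500 reads per library were counted on genes, with a median of 66094896. Levels are given as CPM (a gene's count per 1e+06 counts on all genes, with the total scaled by edgeR's TMM factors). *Bmal1*, which the counts list as *Arntl*, had 1.35 ± 0.32 CPM in untreated WT, 0.720 ± 0.24 in untreated *Bmal1* Mye-/-, 1.11 ± 0.47 in IMQ-treated WT and 0.702 ± 0.48 in IMQ-treated *Bmal1* Mye-/- (SD, n = 5 each), and the ranges of the genotypes overlapped. This count is per gene, so reads from exons outside the deleted part would remain in it, and reads per exon were not examined. *Lyz2*, where Cre is inserted, had 2465 to 12032 CPM over the 10 WT libraries and 58.8 to 177 CPM over the 10 *Bmal1* Mye-/- libraries. The summed level of 11 neutrophil marker genes was 129200 to 152368 CPM in the untreated libraries, and a 12th, *Ly6g*, is not listed in the counts. In the IMQ-treated libraries it was 103272 to 163384 CPM in WT and 72855 to 152185 CPM in *Bmal1* Mye-/-. IMQ-treated WT replicate 5 lay among the untreated libraries on the first principal component of the tested genes, and IMQ-treated *Bmal1* Mye-/- replicate 2 lay among the untreated libraries of its genotype. IMQ-treated *Bmal1* Mye-/- replicate 1 had the highest TMM factor, 1.38, the lowest neutrophil sum, 72855 CPM, and the highest sum of 10 monocyte and macrophage markers, 1489 CPM against 143 to 563 CPM in the other 9 IMQ-treated libraries. The labels do not say that each library came from its own mouse, so p-values measure the spread between libraries, part of which may be technical. The main fit shares its estimate of a gene's spread over all 4 groups, although untreated libraries varied less than IMQ-treated ones. That estimate need not be the spread of the groups compared. In bulk RNA, fewer cells of a type and less RNA per cell cannot be told apart.

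The promoters of the genes that rose with IMQ in WT are shown here because members that move together can be read beside their sequence. CLOCK and BMAL1 bind E-boxes, whose letters are CACGTG, and hypoxia-inducible factors bind sites whose core reads ACGTG in its usual form and, in a variant of that form, GCGTG. The sequences are from RefSeq on GRCm38.p6, the assembly also called mm10, written 5′ to 3′ on the strand of the gene. They are the 250 bases before an annotated start, and for *Pfkl*, whose window runs into annotated exons, the 29 bases around its match. Capitals mark the E-box and either core on both strands. The usual core reads CACGT on the opposite strand and lies inside every E-box, and the variant core reads CACGC on the opposite strand.
Ldha, chr7:46845554-46845803, plus strand: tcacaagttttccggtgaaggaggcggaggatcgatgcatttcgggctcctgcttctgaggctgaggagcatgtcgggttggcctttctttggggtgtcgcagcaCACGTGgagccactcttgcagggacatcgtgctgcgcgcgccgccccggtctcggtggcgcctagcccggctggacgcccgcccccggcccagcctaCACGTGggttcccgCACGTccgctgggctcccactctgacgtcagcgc
Pgk1, chrX:106186850-106187099, plus strand: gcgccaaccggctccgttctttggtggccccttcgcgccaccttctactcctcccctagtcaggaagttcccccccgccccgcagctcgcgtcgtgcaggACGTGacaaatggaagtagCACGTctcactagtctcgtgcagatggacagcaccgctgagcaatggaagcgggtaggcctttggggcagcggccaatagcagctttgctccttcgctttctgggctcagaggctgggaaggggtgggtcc
Gapdh, chr6:125165774-125166023, minus strand: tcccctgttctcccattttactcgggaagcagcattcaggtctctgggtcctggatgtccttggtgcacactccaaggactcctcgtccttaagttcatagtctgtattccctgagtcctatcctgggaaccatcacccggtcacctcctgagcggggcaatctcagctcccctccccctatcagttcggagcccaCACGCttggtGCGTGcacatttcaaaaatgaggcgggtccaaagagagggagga
Pfkl, chr10:78009890-78009918, minus strand: atttgtagactgGCGTGcgctccgccttt

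In the first *Ldha* window the E-boxes began 145 and 48 bases before the start, and a further CACGT began 34 bases before it. The *Pgk1* window held ACGTG at 150 and CACGT at 131 bases before its start and no E-box. *Gapdh* had CACGC at 54 and GCGTG at 44 bases before its start, and *Pfkl* had GCGTG at 99. RefSeq windows were at hand for 9 of the 10 genes, the exception being *Slc2a3*, and some genes have several starts. An E-box was in a window of 1 of the 9, *Ldha*, against 6.86% of all 27025 genes with a window. ACGTG was in 6 of the 9 (*Hk2*, *Hk3*, *Aldoa*, *Pgk1*, *Pkm* and *Ldha*) against 18.5% of all genes, and GCGTG in 4 of the 9 (*Pfkl*, *Gapdh*, *Eno1* and *Ldha*) against 30.9%. Per window, ACGTG was in 7 of 15 windows of the 9 genes against 16.6% of all 32851 windows. Other lists held it too: 10 of 14 genes tied to hypoxia-inducible factors, 7 of 14 glycolysis regulators and 5 of 9 glycogen genes. Further glycolysis genes had it in 3 of 19, citric acid cycle genes in 5 of 21 and pentose phosphate genes in 0 of 8. The ACGTG core was thus not particular to the 9 genes. A match describes the letters of a window and is not a measured binding site.

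Per length of annotated exons, untreated WT neutrophils held most *Pkm*, the gene of pyruvate kinase, at 547 ± 31.6 RPKM (CPM divided by the joined length of all annotated exons in kilobases, SD, n = 5). *Aldoa* followed at 432 ± 27.2 RPKM, *Hk3* at 334 ± 16.6, *Gapdh* at 206 ± 11.3, *Slc2a3* at 165 ± 15.2, *Ldha* at 158 ± 8.97, *Pgk1* at 71.1 ± 4.48, *Hk2* at 26.2 ± 1.31, *Pfkl* at 5.26 ± 0.36 and *Eno1* at 0.386 ± 0.053. By this length *Slc2a3* and *Ldha*, neighbours in this order, did not differ beyond their spread, and the other neighbours did. Joined exons can be longer than any 1 mRNA. They came to 4133 bases for *Gapdh*, 7245 for *Slc2a3* and 3310 for *Ldha*, so the order of near neighbours depends on the length used. *Hk3* was thus the leading hexokinase gene of these cells, above *Hk2* and above *Hk1* at 24.9 ± 0.908 RPKM. Among phosphofructokinase genes, *Pfkl* stood near *Pfkp* at 4.41 ± 0.43 RPKM, with *Pfkm* at 1.45 ± 0.84. Before division by length, *Pfkp* was the higher, at 59.1 ± 5.77 CPM over 13401 bases against 35.1 ± 2.41 CPM over 6675 bases for *Pfkl*. The glucose transporter *Slc2a3* stood above *Slc2a6* at 61.8 ± 11.98 RPKM and *Slc2a1* at 16.7 ± 3.00. Of all counts on genes, 0.725% to 1.02% per library belonged to these 10.

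Some of these genes share sequence with copies elsewhere in the genome, and reads that aligned to more than 1 place, 4.37% to 6.50% per library, were counted on no gene. Of the 50-base stretches of the *Eno1* mRNAs, 49.5% also occur in mRNAs of other genes, chiefly *Eno1b*, which itself had 1.23 ± 0.23 CPM in untreated WT. The share was 68.0% for *Pgk1*, 58.4% for *Gapdh*, 23.7% for *Pkm*, 10.4% for *Ldha*, 8.46% for *Aldoa* and 0.053% for *Pfkl*, and it was 0 for *Hk2*, *Hk3* and *Slc2a3*. Levels of the genes with large shares are therefore uncertain, and *Eno1*, with 61 to 219 counts per library, rests on few reads. Exons of *Hk3*, *Aldoa*, *Gapdh* and *Pkm* also overlap those of *Unc5a*, *Fam57b*, *Iffo1* and *Gm49759*, and the strand setting of the counting is not given in the sources used here.

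**Figure D1:**
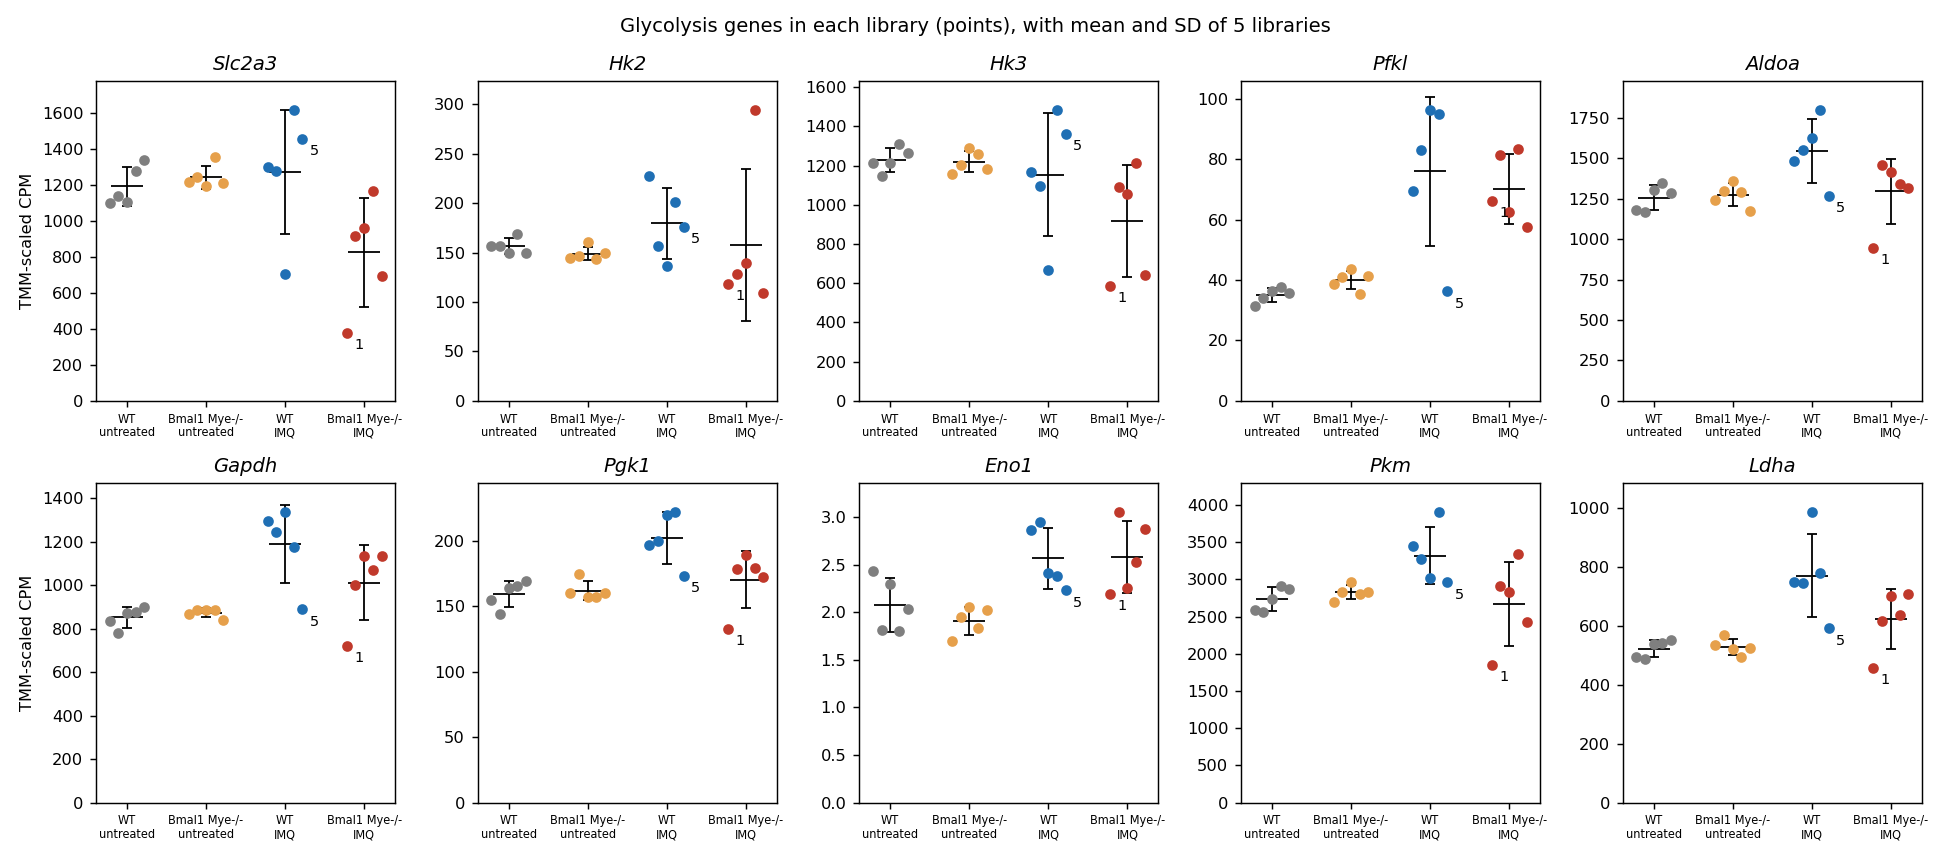
Level of each of the 10 glycolysis genes in TMM-scaled CPM (linear axes from 0) in the 20 libraries, with points for libraries and bars for the mean and SD of the 5 libraries of a group. The labels 5 and 1 mark IMQ-treated WT replicate 5 and IMQ-treated *Bmal1* Mye-/- replicate 1. Untreated libraries lie close together, and IMQ-treated libraries spread, with coefficients of variation of 2.24% to 13.6% and 9.89% to 48.8%.

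In WT neutrophils, *Pfkl*, *Ldha*, *Gapdh* and *Pgk1* rose with IMQ treatment, and none of the 10 genes fell. The rise was 2.17-fold for *Pfkl*, the liver-type phosphofructokinase gene, 1.47-fold for *Ldha*, 1.40-fold for *Gapdh* and 1.27-fold for *Pgk1*. By the quasi-likelihood test of edgeR, adjusted over all 14030 genes by the Benjamini-Hochberg method, 4 of 10 were called higher at an adjusted p under 0.05, where 2.34% of all genes were, and 0 of 10 were called lower, where 1.60% were. Because the genes were chosen with earlier results of these data known, these shares are a description and not a test of the set. The median log2 fold change of the 10 genes was 0.30 and that of all genes 0.03. On log2(CPM + 0.1) without TMM factors the calls over all genes were 171 higher and 432 lower, against 329 and 225 here, and the median of all genes was −0.07 and that of the 10 genes 0.23. Of the 10, 9 had values above 0 and 6 had an unadjusted p under 0.05, where 3129 of all 14030 genes had.

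*Pfkl* (chromosome 10, 77986947 to 78009807, minus strand, mm10) had 31.5, 33.9, 36.3, 37.8 and 35.9 CPM in the untreated WT libraries. In the IMQ-treated WT libraries it had 69.4, 83.2, 96.3, 95.0 and 36.3 CPM. Replicates 1 to 4 of the treated libraries thus stood above every untreated library, and replicate 5 stood inside the untreated range. The log2 fold change was 1.12 ± 0.19 (SE, adjusted p = 0.00702).

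*Ldha* (chromosome 7, 46842274 to 46855627, plus strand), the lactate dehydrogenase subunit that favours lactate, had 495, 486, 538, 540.5 and 552 CPM in untreated WT and 749.5, 745, 986, 778 and 591 CPM with IMQ. The groups did not overlap, and replicate 5 was again the lowest of the treated libraries. The log2 fold change was 0.56 ± 0.13 (adjusted p = 0.0235). *Gapdh* (chromosome 6, 125161852 to 125166467, minus strand), whose enzyme makes NADH and 1,3-bisphosphoglycerate, had 836, 778, 871, 875 and 899 CPM in untreated WT and 1296, 1245, 1338, 1176 and 889 CPM with IMQ. Replicate 5 lay inside the untreated range and the other treated libraries lay above it, with a log2 fold change of 0.48 ± 0.12 (adjusted p = 0.0375). *Pgk1* (chromosome X, 106187100 to 106203699, plus strand), the gene of the first enzyme of the pathway to yield ATP, had 155, 144, 164, 166 and 169 CPM in untreated WT and 197, 199.7, 219.9, 222 and 173 CPM with IMQ. Its groups did not overlap, and the log2 fold change was 0.34 ± 0.094 (adjusted p = 0.0473).

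The other 6 genes did not pass the test in WT. *Pkm* (chromosome 9, 59656576 to 59679372, plus strand) had 2561 to 2914 CPM in untreated WT and 2962 to 3910 CPM with IMQ, so its groups did not overlap, with a log2 fold change of 0.28 ± 0.13 (adjusted p = 0.223). *Aldoa* (chromosome 7, 126795234 to 126800994, minus strand) had 0.30 ± 0.12 (adjusted p = 0.143), again with replicate 5 inside the untreated range. *Eno1* (chromosome 4, 150236708 to 150248879, plus strand) had a log2 fold change of 0.31 ± 0.16 and *Hk2* (chromosome 6, 82725025 to 82774454, minus strand) of 0.20 ± 0.21. *Slc2a3* (chromosome 6, 122727809 to 122802363, minus strand) and *Hk3* (chromosome 13, 55005985 to 55021475, minus strand), which take up and trap glucose, had log2 fold changes of 0.09 ± 0.23 and −0.09 ± 0.20. In all, the IMQ-treated libraries stood above every untreated library for 3 of the 10 genes, *Pgk1*, *Pkm* and *Ldha*, against 3.11% of all genes, and below them for 0, against 3.31%.

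The call of *Pfkl* held in each of the 10 fits that left out 1 WT library, with log2 fold changes of 1.01 to 1.29 and adjusted p of 1.33e-05 to 0.0348. *Ldha*, *Gapdh* and *Pgk1* passed in 1 of these 10 fits, the one without IMQ-treated WT replicate 5, in which their log2 fold changes were 0.64, 0.56 and 0.39. Over all genes that fit called 1078 higher and 911 lower, against 329 and 225 with all libraries. In the other 9 fits the lowest log2 fold changes were 0.45, 0.43 and 0.30, and adjusted p reached 0.0766 for *Ldha*, 0.115 for *Gapdh* and 0.149 for *Pgk1*. A fit of the WT groups alone called 1 gene, *Pfkl*, and with the replicate number as a block in those groups 0 were called, with an adjusted p of 0.0661 for *Pfkl*.

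**Figure D2:**
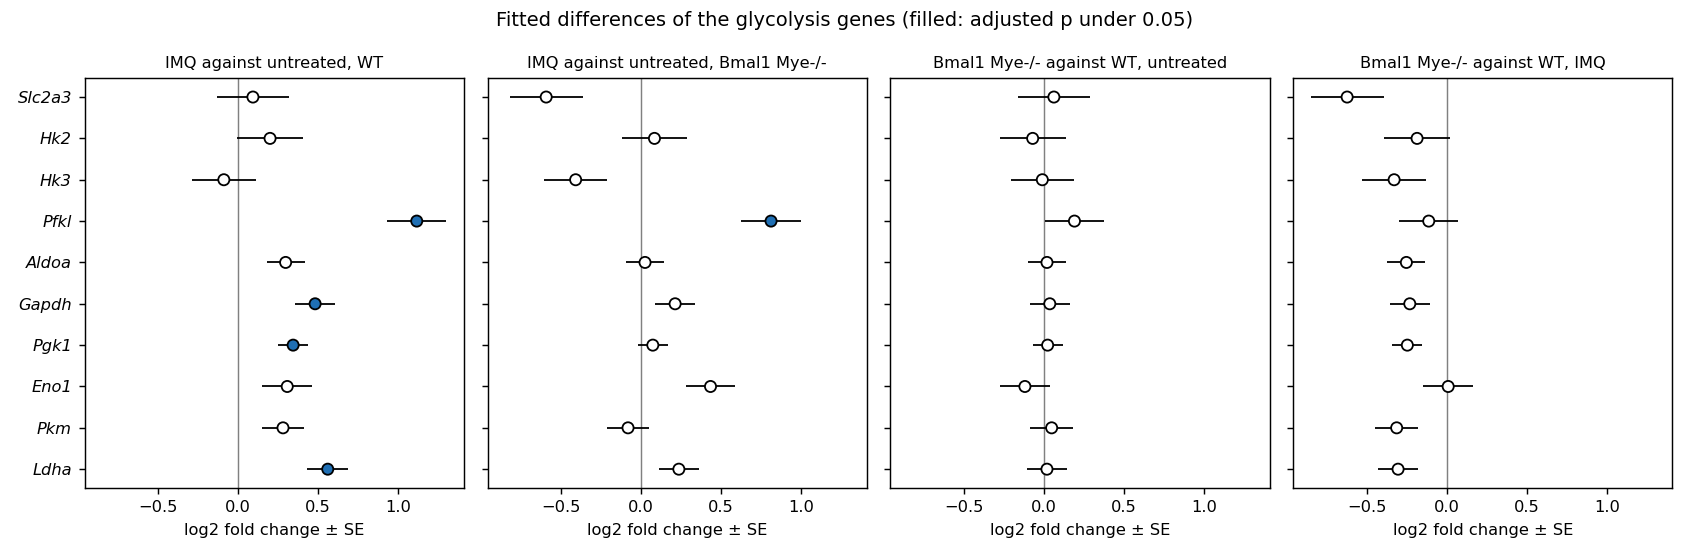
Fitted log2 fold change with its SE for the 10 glycolysis genes in 4 comparisons, filled where the adjusted p over all genes was under 0.05. *Pfkl* is filled in both genotypes under IMQ, *Ldha*, *Gapdh* and *Pgk1* in WT alone, and no gene is filled in either comparison of genotypes.

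Among *Bmal1* Mye-/- neutrophils, *Pfkl* alone of the 10 genes rose with IMQ, 1.76-fold. It was 1 of 10 called higher, where 14.4% of all genes were, and 0 of 10 were called lower, where 9.04% were. The median log2 fold change of the 10 genes was 0.08 and that of all genes 0.02, and without treated replicate 1 they were 0.17 and 0.00147. *Pfkl* had 38.8, 41.0, 43.7, 35.5 and 41.3 CPM in the untreated libraries and 66.3, 81.6, 62.5, 83.4 and 57.6 CPM in the treated ones. Every treated library was above every untreated one, with a log2 fold change of 0.81 ± 0.18 (adjusted p = 0.00825). The call held in all 10 fits that left out 1 library of the pair of groups.

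*Ldha*, *Gapdh* and *Pgk1*, which rose in WT, had log2 fold changes of 0.24 ± 0.13, 0.21 ± 0.12 and 0.07 ± 0.094 here (adjusted p = 0.168, 0.204 and 0.585). *Ldha* had 533, 569.9, 522, 495 and 525 CPM in untreated *Bmal1* Mye-/- and 456, 615, 699.7, 636 and 708 CPM with IMQ. *Gapdh* had 868, 885, 886, 887 and 841 CPM untreated and 722, 999, 1136, 1069.9 and 1134 CPM with IMQ. For both genes, 4 treated libraries lay above every untreated one, and replicate 1, the library with the low neutrophil and high monocyte sums, lay below every one. Without it, *Ldha* and *Gapdh* passed with log2 fold changes of 0.34 and 0.33 (adjusted p = 0.0409 and 0.0348), and with *Pfkl* and *Eno1* the number called rose to 4. Over all genes that fit called 1410 higher and 780 lower, against 2024 and 1268 with all libraries.

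*Eno1* had 1.69 to 2.05 CPM in untreated *Bmal1* Mye-/- and 2.19 to 3.06 CPM with IMQ, with no overlap. Its log2 fold change was 0.43 ± 0.16, and its adjusted p was 0.050004, just over the threshold. *Slc2a3*, the main glucose transporter gene of these cells, had 1216, 1247, 1199, 1356 and 1212 CPM untreated and 380.5, 920.4, 965, 1171 and 695 CPM with IMQ. Every treated library was thus below every untreated one, with a log2 fold change of −0.59 ± 0.23 (adjusted p = 0.0640), and over the 10 fits without 1 library the adjusted p was 0.0306 to 0.136, under the threshold in 1 of them, the fit without IMQ-treated replicate 4. Over all genes that fit called 2474 higher and 1330 lower. *Hk3* followed *Slc2a3* with 1158 to 1290 CPM untreated and 586, 1092, 1056, 1215 and 643 CPM with IMQ, of which 4 were below the untreated range (log2 fold change −0.41 ± 0.20, adjusted p = 0.132). *Aldoa*, *Pkm* and *Hk2* had log2 fold changes of 0.02 ± 0.12, −0.08 ± 0.13 and 0.08 ± 0.21. Of the 10 genes, 2 (*Pfkl* and *Eno1*) had all treated libraries above the untreated ones, against 10.8% of all genes, and 1 (*Slc2a3*) had all below, against 9.31%.

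The low values of *Slc2a3* and *Hk3* were in the same libraries. Under IMQ, *Slc2a3* was lowest in *Bmal1* Mye-/- replicates 1 and 5 and in WT replicate 3, at 380.5, 695 and 708 CPM, and *Hk3* at 586, 643 and 666 CPM in those libraries. These 3 also had the lowest neutrophil marker sums of the 10 treated libraries, 72855, 110356 and 103272 CPM against 140624 or more in the other 7. They had the highest sums of 10 proliferation genes, 2599, 2729 and 2540 CPM against 465 to 1786 in the others. The part of cell composition in the levels of *Slc2a3* and *Hk3* was not tested.

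Without IMQ, none of the 10 genes differed between the genotypes by the test. By edgeR, 0 of 10 were called higher, where 0.107% of all genes were, and 0 of 10 lower, where 0.0998% were. At an unadjusted p under 0.05 the count was 0 of 10, where 307 of 14030 genes were, and DESeq2 also called 0. A fit of the untreated groups alone called 35 of all genes higher and 24 lower, and none of the 10. Log2 fold changes ran from −0.12 ± 0.16 for *Eno1* to 0.19 ± 0.18 for *Pfkl*, with a median of 0.02 beside −0.0039 for all genes, and every adjusted p was 1.00. In no gene did the untreated groups stand apart, against 0.791% of all genes that were higher and 0.727% that were lower in every *Bmal1* Mye-/- library.

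Under IMQ, 9 of the 10 genes had lower fitted values in *Bmal1* Mye-/- than in WT, but none passed the test. The median log2 fold change was −0.25, beside 0.03 for all genes. Without *Bmal1* Mye-/- replicate 1 it was −0.15, and without that library and WT replicate 3 it was −0.11. By edgeR, 0 of 10 were called higher, where 0.185% of all genes were, and 0 of 10 lower, where 0.107% were. At an unadjusted p under 0.05 there were 5, *Slc2a3*, *Pgk1*, *Ldha*, *Pkm* and *Aldoa*, where 2788 of 14030 genes were, and DESeq2 called 0. A fit of the IMQ-treated groups alone called 11 of all genes higher and 5 lower, and none of the 10. All 10 pairs of groups overlapped, where 0.627% of all genes were higher and 0.442% lower without overlap. Scaling moved these values: on log2(CPM + 0.1) without TMM factors, the median of all genes was 0.22 and that of the 10 genes −0.07.

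*Slc2a3* had the lowest of these values, −0.62 ± 0.23 (adjusted p = 0.212), with 1300.2, 1279, 708, 1619 and 1459 CPM in IMQ-treated WT against 380.5 to 1171 CPM in IMQ-treated *Bmal1* Mye-/-. WT replicate 3 lay within the *Bmal1* Mye-/- range and the other 4 WT libraries above it. Without WT replicate 3 the adjusted p was 0.0225, and this was the only one of the 10 genes that passed in that fit. Over all genes that fit called 1921 higher and 1208 lower, against 26 and 15 with all libraries, so the call is not particular to *Slc2a3*. Without that library and *Bmal1* Mye-/- replicate 1 together, which have the highest TMM factors, the *Slc2a3* value was −0.56 with an adjusted p of 0.0185. There 772 of all genes were called higher and 487 lower. *Hk3* and *Pkm* had −0.33 ± 0.20 and −0.31 ± 0.13, *Ldha* −0.31 ± 0.13, *Aldoa* −0.25 ± 0.12, *Pgk1* −0.25 ± 0.094, *Gapdh* −0.23 ± 0.12, *Hk2* −0.19 ± 0.21, *Pfkl* −0.11 ± 0.18 and *Eno1* 0.01 ± 0.16. *Hk2* rested on 1 library: IMQ-treated *Bmal1* Mye-/- replicate 4 had 294 CPM and the other 4 had 109 to 139.7 CPM. Without that library the log2 fold change was −0.53 with an adjusted p of 0.0397, in a fit that called 170 of all genes higher and 110 lower.

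Unequal responses of the genotypes to IMQ were tested by an interaction term. By edgeR, 0 of 10 genes were called in either direction, as 0% of all genes were higher and 0% lower, and DESeq2 also called 0 of 10. At an unadjusted p under 0.05 there was 1 of 10, *Slc2a3*, with a difference of log2 fold changes of −0.68 ± 0.32 (adjusted p = 0.640), and 721 of 14030 genes. The other 9 differences ran from −0.36 ± 0.19 for *Pkm* to 0.13 ± 0.22 for *Eno1*, with −0.30 ± 0.26 for *Pfkl* and −0.32 ± 0.18 for *Ldha*. The rise of *Ldha*, *Gapdh* and *Pgk1* past the threshold in WT alone is therefore not shown to differ between the genotypes.

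Ratios within a library need no scaling between libraries. The ratio of *Ldha* to *Ldhb*, the subunits of lactate dehydrogenase, was 50.9, 62.0, 60.1, 96.8 and 92.7 in the untreated WT libraries and 128, 115, 99.3, 223 and 116 in the treated ones, which did not overlap. The log2 ratio was 0.89 higher with IMQ (two-sided exact permutation test, p = 0.00794, the smallest that 5 against 5 allows, adjusted p = 0.0635 over 8 tests). The log2 ratio in *Bmal1* Mye-/- differed by 0.01 between treated and untreated libraries (exact permutation p = 0.952), and under IMQ it was −0.98 from WT (exact permutation p = 0.0317, adjusted p = 0.106). *Ldhb* had few counts, with 6.17 ± 2.38 CPM in IMQ-treated WT and 9.86 ± 3.55 CPM in IMQ-treated *Bmal1* Mye-/-. *Ldha* alone had a log2 fold change of −0.31 ± 0.13 between these groups, so the ratio also carries the difference in *Ldhb*. The log2 ratio of *Hk2* to *Hk3* was 0.32 higher with IMQ in WT (exact permutation p = 0.0397, adjusted p = 0.106) and 0.45 higher in *Bmal1* Mye-/- (exact permutation p = 0.0556, adjusted p = 0.111). None of the 8 tests passed after adjustment.

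Across the 20 libraries the genes fell into a pair of loose sets. *Gapdh* and *Ldha* had a Pearson correlation of log2 CPM of 0.96, *Pgk1* and *Ldha* of 0.94 and *Aldoa* and *Pgk1* of 0.93. *Slc2a3* and *Hk3*, the entry of the pathway, had 0.93. Between the sets, *Slc2a3* and *Ldha* had 0.01 and *Hk3* and *Ldha* −0.23. *Pkm* was tied to both, with 0.75 to *Slc2a3* and 0.85 to *Aldoa*. With the means of the 4 groups removed, *Gapdh* and *Ldha* kept 0.90, *Slc2a3* and *Hk3* 0.93, and *Slc2a3* and *Ldha* had 0.11. These values are descriptions over libraries that share scaling and the spread of the IMQ-treated group.

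**Figure D3:**
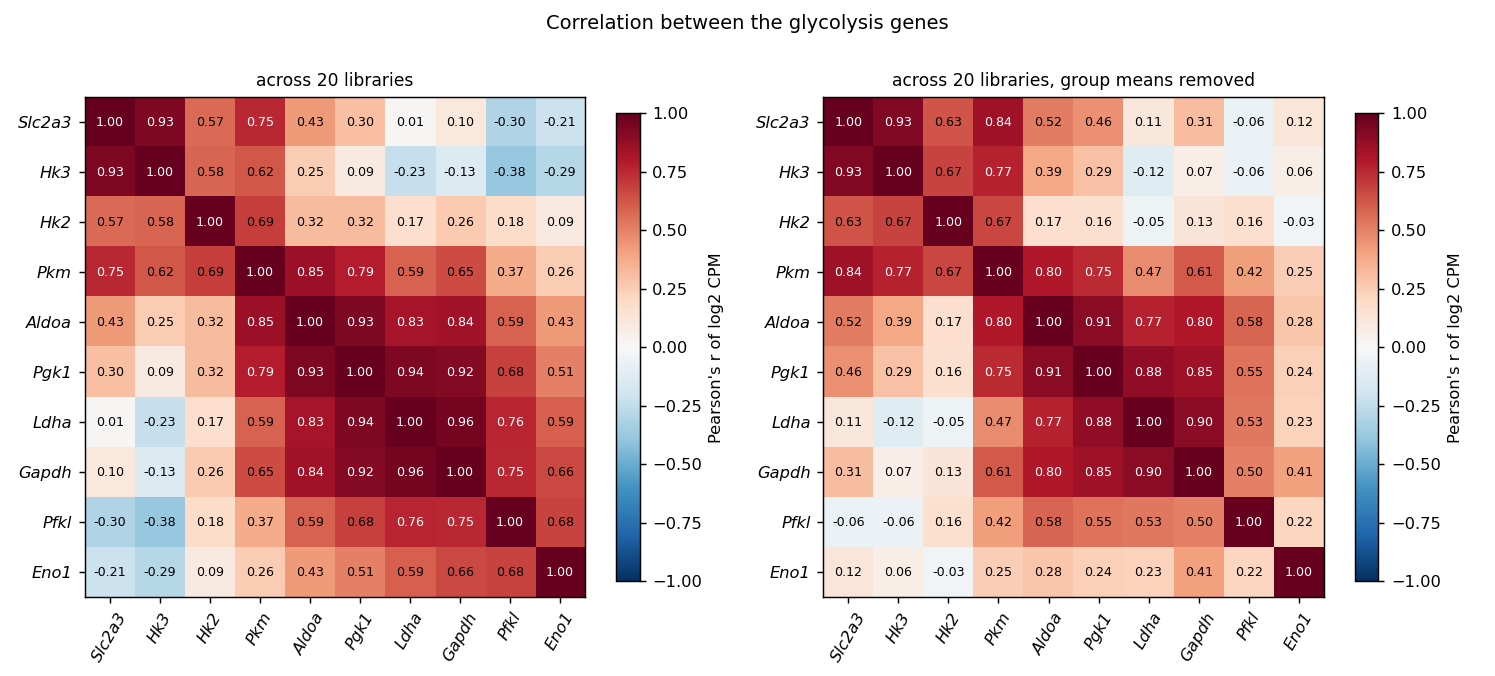
Pearson correlation of log2 CPM between each pair of the 10 glycolysis genes, over 20 libraries (left) and over 20 libraries with the mean of each group removed (right). *Aldoa*, *Pgk1*, *Ldha* and *Gapdh* form a block, with 0.77 or more in both panels, and *Slc2a3* and *Hk3* form another at 0.93.

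Among the other genes with a mean of at least 10 CPM, the 5 most like the mean of the standardized levels of the 10 genes over the 20 libraries were *S100a6* (r = 0.94), *Gm5483* (0.93), *Flii* (0.92), *Atp11b* (0.91) and *Dhrs1* (0.91). The gene most like *Hk3* was *Pfkfb4* (0.98), whose enzyme sets the level of fructose 2,6-bisphosphate, the activator of phosphofructokinase. The genes most like the others were *Capn1* for *Slc2a3* (0.98), *Sri* for *Gapdh* (0.97), *Becn1* for *Pkm* (0.94), *Fam20c* for *Pfkl* (0.94), *Ankfy1* for *Hk2* (0.94) and *Szrd1* for *Eno1* (0.82). For *Aldoa*, *Pgk1* and *Ldha* they were members themselves, *Pgk1*, *Ldha* and *Gapdh*.

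At the same steps of the pathway, 16 of 21 further transporter, enzyme and isozyme genes were tested. In WT under IMQ, 2 of 16 rose and 0 fell, where 2.34% and 1.60% of all genes did: *Slc2a1*, the widespread glucose transporter gene, with a log2 fold change of 0.86 ± 0.21 (adjusted p = 0.0298), and *Pfkp*, the platelet-type phosphofructokinase gene, with 0.80 ± 0.14 (adjusted p = 0.00702). Both had treated groups that did not overlap the untreated ones. *Tpi1*, triosephosphate isomerase, had 0.72 ± 0.21 (adjusted p = 0.0549), *Hk1* 0.30 ± 0.10 (adjusted p = 0.0877) and *Gpi1*, glucose-6-phosphate isomerase, 0.38 ± 0.16 (adjusted p = 0.169). In *Bmal1* Mye-/- 2 rose, *Pfkp* with 0.76 ± 0.14 (adjusted p = 0.00460) and *Tpi1* with 0.65 ± 0.21 (adjusted p = 0.0312). Another 2 fell there, the transporter gene *Slc2a6* with −0.92 ± 0.27 (adjusted p = 0.0218) and the enolase gene *Eno3* with −0.50 ± 0.13 (adjusted p = 0.0164). These counts, 2 of 16 each way, stand beside 14.4% of all genes called higher and 9.04% called lower. Without treated replicate 1 they were 1 and 1, where 1410 of all genes were called higher and 780 lower. *Pfkl* and *Pfkp* were called higher in both genotypes, while *Pfkm* had −0.32 ± 0.55 in WT and −0.64 ± 0.55 in *Bmal1* Mye-/-. The median log2 fold change of the 16 genes was 0.18 in WT and 0.15 in *Bmal1* Mye-/-, and by edgeR 0 of 16 were called between genotypes or in the interaction. At an unadjusted p under 0.05 there were 1 between the untreated genotypes, 5 between the IMQ-treated ones and 3 in the interaction. Of all 14030 genes, 307, 2788 and 721 were. Without IMQ-treated WT replicate 5 and *Bmal1* Mye-/- replicate 2, 6 rose and 1 fell in WT, where 1161 of all genes rose and 968 fell in that fit. With the replicate number as a block, 2 rose and 3 fell in *Bmal1* Mye-/-, where 1859 of all genes rose and 1255 fell.

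**Figure D4:**
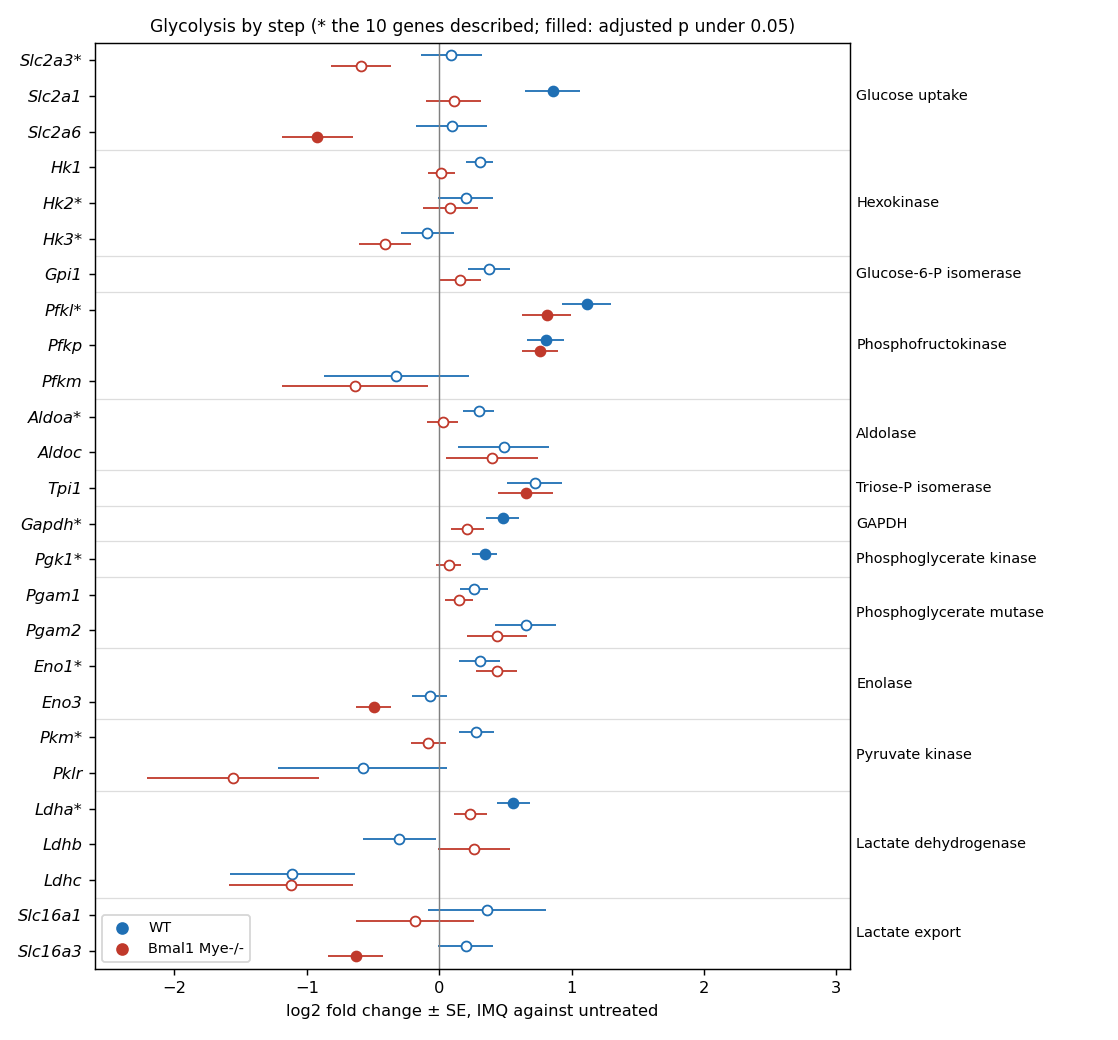
Fitted log2 fold change with its SE for IMQ against untreated, by step of the pathway from glucose uptake to lactate export, in WT (blue) and *Bmal1* Mye-/- (red), filled where the adjusted p was under 0.05. At the phosphofructokinase step *Pfkl* and *Pfkp* are filled in both genotypes, and the 2 filled points with the lowest values are *Slc2a6*, −0.92, and *Slc16a3*, −0.63, in *Bmal1* Mye-/-.

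Of 14 genes that steer the flux or carry off its products, 3 rose in WT: *Bpgm*, which makes 2,3-bisphosphoglycerate (log2 fold change 2.01 ± 0.53), *Pfkfb2*, which makes fructose 2,6-bisphosphate (0.58 ± 0.16), and *Pdk3*, a kinase that turns off pyruvate dehydrogenase (0.45 ± 0.12). No gene of this list fell in WT, where 2.34% of all genes rose and 1.60% fell. *Bpgm*, which red cell precursors hold in plenty, reached 71.0 CPM in IMQ-treated WT against 8.78 CPM at most in untreated WT. The summed erythroid markers were 103 to 585 CPM in IMQ-treated WT against 46.0 to 130.3 in untreated WT. Among them the 4 globin genes had no counts. *Slc4a1* had a mean of 175 CPM with IMQ against 34.3 untreated, and *Klf1* 9.20 against 10.3. The part of erythroid cells in the *Bpgm* values was not tested. In *Bmal1* Mye-/- 3 rose, *Pfkfb1* (1.20 ± 0.40), *Tigar* (0.62 ± 0.21) and *Pdk3* (0.40 ± 0.12), and the lactate exporter gene *Slc16a3* fell (−0.63 ± 0.21). Those counts, 3 and 1 of 14, stand beside the same 14.4% and 9.04%. Without treated replicate 1 they were 1 and 1, beside the 1410 and 780 of all genes in that fit. *Hif1a*, whose protein drives many glycolysis genes, had 0.13 ± 0.27 in WT and −0.71 ± 0.27 in *Bmal1* Mye-/- (adjusted p = 0.831 and 0.0616). Of 16 genes of hypoxia-inducible factor subunits, prolyl hydroxylases and further targets, *Ankrd37* (1.71 ± 0.42) and *P4ha1* (1.11 ± 0.26) rose in WT, and *Vegfa* (0.42 ± 0.13) and *Egln1* (0.35 ± 0.10) in *Bmal1* Mye-/-, 2 of 16 in each genotype beside 2.34% and 14.4% of all genes. None of these genes was called in the comparisons of genotypes.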

How the data were processed

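Bone marrow neutrophils of 20 samples were sequenced as poly(A) libraries with 50-base reads. The authors deposited whole-number counts of reads per gene for each library. The submitters' processing notes name STAR 2.7.8a, HTSeq 2.0.1 and mm10, whereas the study's methods name TopHat, and the annotation and strand setting are not given in the sources used here. A joined table held the same counts, with 0 differing values, and was not used. The 5 summary lines of each file stayed out of library sizes: 37.4% to 41.9% of reads fell on genes.

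Groups came from the labels. Counts were filtered with filterByExpr, scaled by TMM and fitted with edgeR 4.0.16 (limma 3.58.1, R 4.3.3) in 1 quasi-likelihood model of 4 groups, with Benjamini-Hochberg adjustment over 14030 genes and a threshold of 0.05. Log CPM used a prior count of 2. RPKM were computed from the counts and the union of exons (GENCODE M21), and promoter windows came from RefSeq tables. Exact permutation tests used scipy 1.17.1 (Python 3.11.15, matplotlib 3.10.9).

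Alternatives were DESeq2 1.42.0, RLE factors, no filter, at least 10 counts in every library, limma on log2(CPM + 0.1), fits of the compared groups, a replicate block, and fits without single libraries. The fit was tested on simulated data: of 100 genes changed by 1 on the log2 scale, 46 were recovered in the comparison of IMQ-treated with untreated WT, and 78 of 100 changed by 2. Replicate numbers are shared between groups. Deviations of same-numbered libraries correlated at 0.128 to 0.426 in *Bmal1* Mye-/- (IMQ and untreated), over 0.1 in each pair, but at 0.0728 to 0.384 in WT and as low as −0.497 between genotypes.

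Named genes are the 10 genes, those past the threshold on each other list (6 at most, by size of change), isozymes, and the genes most like them. The genes and lists were chosen with earlier results of these data known.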

Additional observations from a re-analysis of the deposited data

Results flagged for a closer look

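Of 48 groups of 5 libraries examined for a library far from the others, 3 were flagged, where chance flags about 1 in 20. *Hk2* had 294 CPM in IMQ-treated *Bmal1* Mye-/- replicate 4, above the 109 to 139.7 CPM of the other 4 libraries. *Aldoa* had 948 CPM in IMQ-treated *Bmal1* Mye-/- replicate 1, below the 1317 to 1458 CPM of the other 4, and this library also had the lowest summed neutrophil markers of all 20. *Pgk1* had 175 CPM in untreated *Bmal1* Mye-/- replicate 2, above 157 to 160.5 CPM in the other 4. What sets these libraries apart was not tested.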

How the results depend on the processing

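Of 1060 values of the 10 genes under alternatives, 962 kept their direction and side of the threshold, 41 lost and 19 gained a call, and 38 reversed, and the cause of the reversals was not tested. In WT, the main 4 genes called under IMQ became 2 without a filter, 1 with only the groups compared, 2 with the replicate block, 0 with the block in the 2 groups alone (where *Pfkl* had an adjusted p of 0.0661), 5 without both IMQ-treated *Bmal1* Mye-/- replicate 1 and WT replicate 3 (chosen after seeing the data), and 1 to 4 without single libraries. In *Bmal1* Mye-/- the 1 gene called became 3 with DESeq2 (which called 2382 of all genes higher and 1793 lower) and with limma, 2 with at least 10 counts, 5 without those 2 libraries and 1 to 4 without single ones. The replicate block left *Pfkl* as the 1 call there. Between IMQ-treated genotypes 0 became 1 without those 2 libraries and 0 to 1 without single ones. Over all genes, the fit without those 2 libraries called 549 higher and 350 lower with IMQ in WT. It called 2453 and 1631 in *Bmal1* Mye-/-, and 772 and 487 between IMQ-treated genotypes. Without WT replicate 5 and *Bmal1* Mye-/- replicate 2 the counts were 4 and 1. That fit called 1161 of all genes higher and 968 lower in WT, and 2737 and 1635 in *Bmal1* Mye-/-.

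These log2 values reversed. With limma they were −0.020 for *Slc2a3* (IMQ, WT), 0.011 for *Pkm* (IMQ, *Bmal1* Mye-/-), 0.0013 for *Hk3* (untreated genotypes) and 0.147 for *Pfkl* (IMQ-treated genotypes). With DESeq2 and RLE factors *Aldoa* had −0.0013 with both (IMQ, *Bmal1* Mye-/-), *Hk3* 0.0020 with both (untreated genotypes) and *Eno1* −0.0055 and −0.0015 (IMQ-treated genotypes). *Hk3* had 0.00017 with at least 10 counts, and *Hk2* −0.021 with the block in 2 groups (IMQ, *Bmal1* Mye-/-). Without single libraries or a pair of them, values ran over these ranges. IMQ in WT: *Hk3* −0.21 to 0.053, *Slc2a3* −0.021 to 0.24. IMQ in *Bmal1* Mye-/-: *Hk2* −0.25 to 0.194, *Pkm* −0.15 to 0.049, *Ldha* to *Ldhb* −0.19 to 0.28. Untreated genotypes: *Hk3* −0.048 to 0.0072, *Aldoa* −0.023 to 0.031, *Gapdh* −0.00038 to 0.039, *Pgk1* −0.017 to 0.033, *Ldha* −0.017 to 0.041, *Ldha* to *Ldhb* −0.22 to 0.016. IMQ-treated genotypes: *Pfkl* −0.34 to 0.033, *Eno1* −0.089 to 0.075, *Hk2* to *Hk3* −0.063 to 0.20. The interaction of *Hk2* ran from −0.44 to 0.0031. *Eno1*, with 61 counts in its lowest library, rests on few reads.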

Other observations

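Pathways that branch from glycolysis were measured in the same libraries. In WT, 2.34% of all genes were called higher and 1.60% lower with IMQ, and 3129 of 14030 had an unadjusted p under 0.05. Of 8 genes of the pentose phosphate pathway, which makes NADPH, *G6pdx*, the gene of its first enzyme, rose in WT under IMQ (log2 fold change 0.47 ± 0.12, adjusted p = 0.0357). In *Bmal1* Mye-/- *Pgls* (0.65 ± 0.14) and *Rpia* (0.43 ± 0.13) rose and *Taldo1* (−0.62 ± 0.19) fell. Of 10 genes of glycogen storage, *Gyg*, the primer of glycogen synthesis, rose in both genotypes, by 0.62 ± 0.14 in WT and 0.47 ± 0.14 in *Bmal1* Mye-/-. There, *Gys1* also rose (0.44 ± 0.14) and the branching enzyme gene *Gbe1* fell (−0.43 ± 0.15), and with the replicate block 2 rose and 0 fell. Without treated replicate 1, 2 genes rose and 0 fell in *Bmal1* Mye-/- on each of these lists, where 1410 of all genes rose and 780 fell. Of 24 genes of pyruvate entry and the citric acid cycle, edgeR called 0 in WT (1 at an unadjusted p under 0.05). It called *Idh3b* (0.47 ± 0.15), *Sdhc* (0.44 ± 0.14) and *Idh3g* (0.32 ± 0.11) higher and *Sdhd* (−0.28 ± 0.074) lower in *Bmal1* Mye-/-. Over all genes 14.4% were called higher and 9.04% lower there, shares that also stand beside the lists above, and 3 and 1 of 24 are no more than them. With the replicate block, 2 of the 24 rose and 1 fell, and without treated replicate 1 there were 0 and 1.

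Markers of other cells moved too. The counts with IMQ below stand beside 14.4% of all genes called higher and 9.04% lower in *Bmal1* Mye-/-, and 2.34% and 1.60% in WT. Without treated replicate 1, 1410 of all genes were called higher and 780 lower in *Bmal1* Mye-/-. In WT, 3129 of 14030 genes had an unadjusted p under 0.05. Of 10 proliferation genes 9 rose with IMQ in *Bmal1* Mye-/- (7 without treated replicate 1), with a median log2 fold change of 1.70, and edgeR called 0 in WT, where the median was 1.02 and 7 had an unadjusted p under 0.05. The granulocyte colony-stimulating factor receptor gene *Csf3r* was the 1 of 11 neutrophil markers called, with −1.38 ± 0.40 in *Bmal1* Mye-/-, and it was not called without treated replicate 1. Of 10 monocyte and macrophage markers 3 passed there, *Ccr2* (2.30 ± 0.57), *F13a1* (2.12 ± 0.61) and *Ms4a4c* (1.87 ± 0.53), with overlap of the groups, while *Csf1r* had −1.03 ± 0.55 and *Adgre1* −0.86 ± 0.55, and without treated replicate 1 the count was 1. The summed markers were 1489, 563, 174, 277 and 143 CPM in the treated libraries and 308 to 402 CPM in the untreated ones, so 3 of the 5 treated libraries lay below every untreated one. All 8 primary granule and early granulocyte genes had values above 0 with IMQ in *Bmal1* Mye-/- (median 0.60, 0 called), and 4 did in WT. Between the IMQ-treated genotypes all 8 were above 0 (median 0.95, 0 called). Of 9 eosinophil, basophil and mast cell markers, 2 were called higher between the IMQ-treated genotypes, where 0.185% of all genes were. With IMQ, 1 of these 9 was called lower in each genotype. Of 9 lymphocyte markers 2 were called lower in *Bmal1* Mye-/-. The part of these shifts in the glycolysis genes was not tested.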
